A study of Mus musculus with 6 samples.

Results

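Non-exonic circRNAs of the mouse lacrimal gland are described here, chosen as all rows that the authors classed as sense overlapping (330), intronic (156), intergenic (16) or antisense (10). These 512 of 2541 circRNAs (20.1%) held 1700 of the 14332 back-splice junction reads (11.9%), that is, reads in which the end of a stretch of RNA joins its own start. Total RNA came from glands of AQP5+/+ mice and of AQP5-/- mice made with CRISPR/Cas9, all aged 6 months, with 3 mice and 3 libraries of each genotype. AQP5 is the water channel of the gland's secretory cells. No sex was stated for the mice.

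Most circRNAs form when the spliceosome joins the downstream end of an exon to the upstream end of the same or an earlier exon. The exonic class holds those whose ends fall on annotated exon borders. The intronic class is named for circRNAs within an intron, which can be introns that escaped the debranching enzyme DBR1 after splicing. Some rows that the authors classed as intronic also covered an exonic circRNA on the same strand, such as chr5:106634831-106690877 of Zfp644. A sense overlapping circRNA shares the strand of a gene but was classed as neither exonic nor intronic. An antisense circRNA lies on the other strand of a gene, and an intergenic one lies outside the gene models used. No parent gene was named for the intergenic circRNAs, and 328 sense overlapping, 147 intronic and 7 antisense circRNAs had a named host.

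The libraries were shallow for circRNAs, with 2032 to 2953 junction reads each. Aqp5 mRNA was at 154, 89.0 and 142 FPKM in the AQP5+/+ libraries and at 0.378, 0.177 and 0.170 FPKM in the AQP5-/- libraries. Bhlha15, a transcription factor of secretory acinar cells, was at 126 to 192 FPKM in all 6 libraries. The summed level of 5 skeletal muscle markers ranged from 0.0384 to 45.0 FPKM over the AQP5+/+ libraries, with Acta1 at 12.3 FPKM in replicate 2, and from 0.113 to 1.96 FPKM over the AQP5-/- libraries. The Y-linked mRNA Ddx3y was at 0.0952, 11.4 and 0.124 FPKM in AQP5+/+ replicates 1 to 3 and at 13.7, 11.8 and 10.9 FPKM in AQP5-/- replicates 1 to 3. AQP5+/+ replicates 1 and 3 stood apart from the other 4 libraries in Y-linked mRNA. Every AQP5-/- library was on the other side, so that genotype and Y-linked expression cannot be told apart except through AQP5+/+ replicate 2.

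The bases beside the ends of the circles are shown first, because a splice acceptor is preceded by AG and a splice donor is followed by GT. Of the 1024 ends of non-exonic circRNAs, 15 (1.46%) lay inside a RefSeq promoter window of GRCm38.p6, which reaches from 250 bases before to 50 bases after a gene's start. Of the 4058 exonic ends, 24 (0.591%) did. The sequences below run 5′ to 3′ on the strand given for the circRNA, with the pair of bases just outside the circle in capitals and the first bases of the circle after them.
Arhgap5 exonic, chr12:52516062-52516091, plus strand: ttttttcccctttctAGgaagatgatccat
Gm5938 sense overlapping, chrX:78125481-78125510, plus strand: gctttgagcttctgtAGaaaagaaagtctt
Esp31 sense overlapping, chr17:38639409-38639438, plus strand: cactttgctttaaatAGcaggctgtgtagc
Hdac9 antisense, chr12:34086696-34086725, plus strand: ggtttcctgtttcctAGgaaaagaccttca
Obp1a sense overlapping, chrX:78091340-78091369, minus strand: tacttatctgctttgAGcttctgtagaaaa
Obp1a sense overlapping, chrX:78091354-78091383, minus strand: acatccttcacaactACttatctgctttga
Obp1a sense overlapping, chrX:78091360-78091389, minus strand: tagtctacatccttcACaactacttatctg
Scgb2b24 sense overlapping, chr7:33739260-33739289, minus strand: caccatgaaggggacACttcttctgctggc
Intergenic at Scgb2b1, chr7:31263739-31263768, plus strand: catttagcactctccACcatgaagggaaca
Arhgap27 intronic, chr11:103344629-103344658, minus strand: cacttgccctgtgccACctcagagttgtgg

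The exonic circRNA of Arhgap5 shows the usual acceptor. All 22 exonic acceptor-side ends read in these windows followed AG, and both donor-side ends preceded GT. All 15 non-exonic ends read were on the acceptor side. AG preceded 10 of them, and AC preceded the other 5, which reads GT on the opposite strand. Over the 32851 promoter windows AG made up 7.69% and AC 4.82% of all pairs of adjacent bases, and nearly every window held each pair (99.99% and 99.97%). The 5 circRNAs with AC had 2 reads each in 1 library. Their hosts or neighbours included Obp1a, an odorant-binding protein, and the secretoglobins Scgb2b24 and Scgb2b1, all of which are products of secretory glands. The 10 circRNAs with AG had 2 to 6 reads in 1 to 3 libraries, and Obp1a, Gm5938 and Esp31 were among their hosts. The other 1009 ends lay outside these windows or on chromosome 18, and their sequence was not analysed here.

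Among the non-exonic classes, the sense overlapping one had the highest median length and the intronic one the lowest. The predicted length of all 512 non-exonic circRNAs equalled the genomic distance between their ends, so that no intron was removed from it. For the exonic class this held for 116 of 2029. The median predicted length was 4650.5 nt for the sense overlapping class, 622 nt for the intronic class, 1699.5 nt for the intergenic class and 1234.5 nt for the antisense class. The exonic circRNAs had a median of 577 nt after splicing but spanned a median of 9407 nt of the genome. Because the 2 lengths are defined differently, the span is the measure that can be set side by side. On that measure every non-exonic class had a lower median than the exonic class, with 4650.5 nt for sense overlapping against 9407 nt. Spans over 10000 nt were found for 132 sense overlapping circRNAs (40.0%) and 15 intronic ones (9.62%). The exonic share over 10000 nt of span was not counted.

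**Figure D1:**
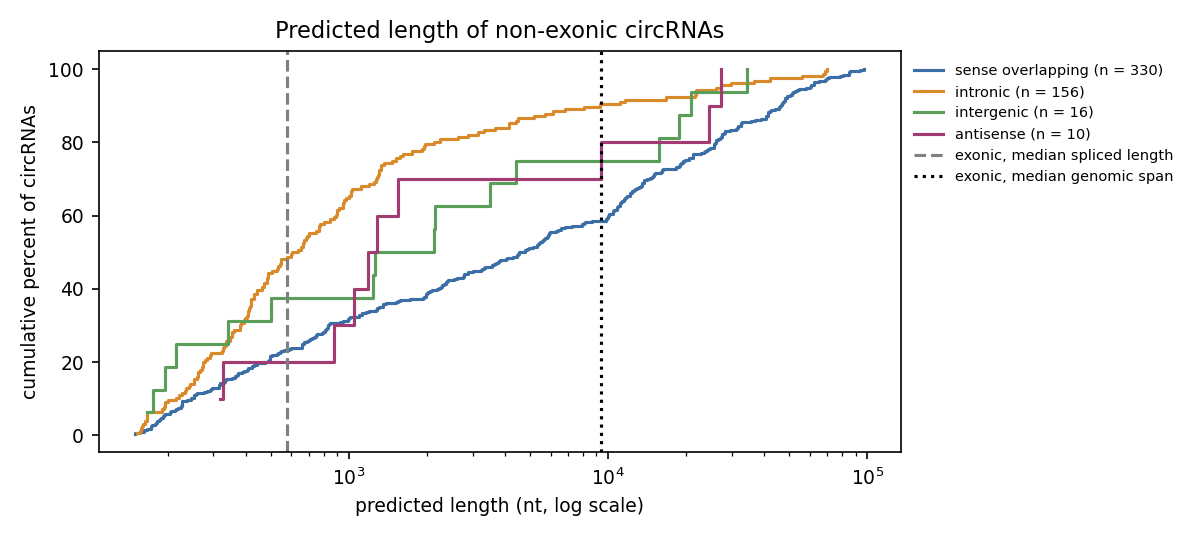
Cumulative percent of circRNAs (vertical axis) by predicted length in nt (horizontal log axis), with 1 line for each non-exonic class, and vertical lines at the median spliced length (577 nt) and median genomic span (9407 nt) of exonic circRNAs. The intronic line rises first, to 65.4% by 1000 nt, and the sense overlapping line last, with 31.8% by 1000 nt.

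The shortest and longest members lay at very different genes. The shortest sense overlapping circRNAs came from Krt18, a keratin of simple epithelia, and Kif14, a mitotic kinesin, at 150 nt each, and from Ogfod1 at 157 nt. The longest were those of Gm12888 at 97415 nt, of the long non-coding RNA Lincpint at 93658 nt and of Scgb2b7 at 85747 nt. Among intronic circRNAs, Kbtbd2 (152 nt), Plcb4 (156 nt) and the amino acid transporter Slc7a5 (158 nt) were the shortest. Iqgap2 (70056 nt), Zswim6 (68725 nt) and Tcte2 (67551 nt) were the longest and had 2 reads in 1 library each. The intergenic circRNAs ranged from 167 to 34381 nt and the antisense ones from 318 to 27258 nt.

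Few reads supported most of these circRNAs. The median was 2 reads over all 6 libraries for the sense overlapping, intronic and antisense classes, 2.5 for the intergenic class and 3 for the exonic class. Exactly 2 reads in all were found for 299 of the 512, and 13 had 10 reads or more, against 249 of 2029 exonic circRNAs. The 521 exonic circRNAs absent from earlier mouse circRNA collections also had a median of 2 reads, and 295 of them had exactly 2. Within a library, non-exonic circRNAs with at least 2 reads had a mean of 2.84 ± 0.162 reads (SD over 6 libraries), and exonic ones had 3.78 ± 0.202. The difference of -0.946 reads had the same sign in 6 of 6 libraries (exact sign-flip permutation test over libraries, two-sided p = 0.03125, the smallest that 6 libraries allow). For the sense overlapping class alone the difference was -1.05 reads (exact p = 0.03125). For the intronic class it was -0.675 reads, lower in 5 of 6 libraries (exact p = 0.0625). With the median in place of the mean the difference of all non-exonic circRNAs was -0.50 reads (exact permutation p = 0.25).

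Replication over libraries was lower than for the exonic class as a whole. Reads were found in 1 library only for 277 of 330 sense overlapping (83.9%), 144 of 156 intronic (92.3%), 12 of 16 intergenic and 10 of 10 antisense circRNAs, and for 57.2% of the exonic class. The table held no circRNA whose highest library had under 2 reads. Reads in at least 3 libraries were found for 29 sense overlapping, 6 intronic and 1 intergenic circRNA. These 36 made up 7.03% of the members, against 25.4% of exonic circRNAs. Exonic circRNAs absent from earlier collections were close to the members, with 86.0% in 1 library and 7.10% in at least 3. Of the sense overlapping and intronic circRNAs absent from them, 91.4% and 95.2% were in 1 library. In at least 3 libraries were 3.27% and 2.06% of these. Only 4 members had reads in all 6 libraries.

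**Figure D2:**
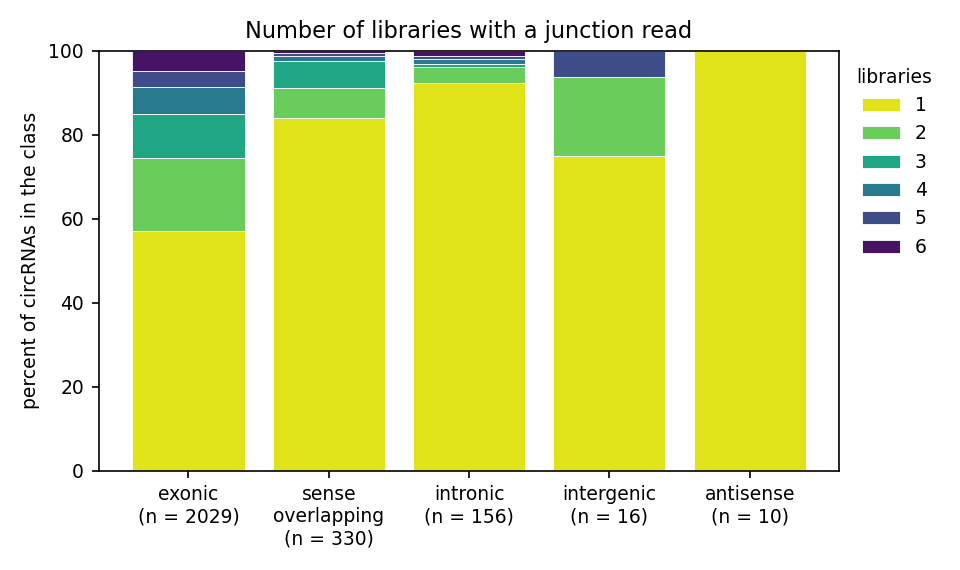
Percent of circRNAs of each class (vertical axis) with junction reads in 1 to 6 libraries (colours), with the number of circRNAs in each class under the bar. The 1-library share is 57.2% for the exonic class, 83.9% for the sense overlapping class and 92.3% for the intronic class, and all 10 antisense circRNAs are in 1 library.

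To allow for depth, each circRNA with at least 2 reads in a library was looked up in the other 5. Of the non-exonic circRNAs 22.6% ± 4.92 (SD over 6 libraries, 73 to 104 circRNAs in each) had a read elsewhere, and of the exonic ones 62.7% ± 3.69. The non-exonic share was lower in 6 of 6 libraries, by 40.1 percentage points on average (exact sign-flip test over libraries, two-sided p = 0.03125). Among circRNAs with exactly 2 reads in the library the shares were 15.6% ± 3.25 and 49.1% ± 4.09. The sense overlapping class recurred at 24.7% ± 6.20 and the intronic class at 18.1% ± 4.23. A circRNA found in several libraries counts in each, so the 6 shares are not independent.

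**Figure D3:**
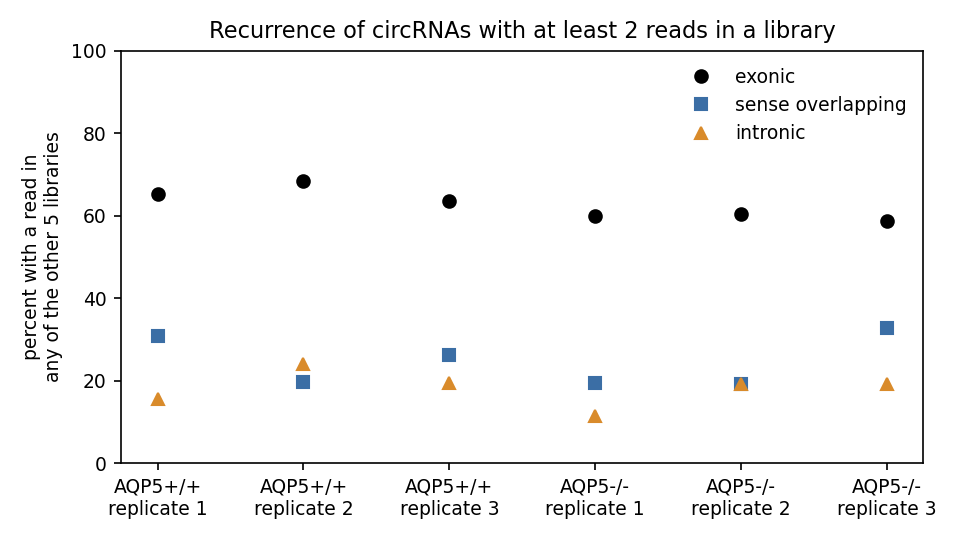
Percent of circRNAs with at least 2 reads in a library (horizontal axis, 6 libraries) that also have a read in any of the other 5 libraries (vertical axis), for 3 classes. The exonic points lie between 58.7% and 68.4%, and those of the sense overlapping (19.1% to 32.8%) and intronic (11.4% to 24.0%) classes lie below them in every library.

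Membership in earlier mouse circRNA collections, which the authors annotated for each circRNA, was also less frequent in each non-exonic class than in the exonic class. Earlier lists held 85 of 330 sense overlapping (25.8%), 10 of 156 intronic (6.41%), 1 of 16 intergenic and 0 of 10 antisense circRNAs, against 74.3% of exonic circRNAs. Among sense overlapping circRNAs, 24.7% of the listed ones had reads in at least 3 libraries, and 3.27% of those in no list. When only circRNAs in no list were looked up in other libraries, 11.5% ± 4.39 of the non-exonic and 24.9% ± 5.27 of the exonic ones recurred (exact sign-flip p = 0.03125, lower in 6 of 6 libraries). This choice was made after the data were seen.

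Some non-exonic circRNAs used an end of an exonic circRNA. An exact start or end on the same strand was shared by 51 sense overlapping and 5 intronic circRNAs, and by none of the intergenic or antisense ones. The 51 had a median length of 23504 nt, against 2776 nt for the 279 that shared no end. In Zfp609, whose exonic circRNA chr9:65794622-65795495 had 160 reads, 2 sense overlapping circRNAs of 21278 and 23504 nt used its start and had 4 and 2 reads in 1 library each. Both intronic circRNAs of Gm21992 that shared an end met exonic circRNAs of Rbm4, an RNA-binding splicing factor. One of them, chr19:4792398-4804015 (11618 nt), had 0, 2 and 0 reads without the deletion and 0, 1 and 8 with it. Its exonic partner in Rbm4 had 73 reads in 6 libraries.

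The intronic circRNA of Tulp4, a tubby-like protein, was the most abundant member with 105 reads, or 19.1% of the reads of its class. It spans chr17:6137211-6139156 on the plus strand (1946 nt). AQP5+/+ replicates 1 to 3 had 17, 13 and 19 reads, and AQP5-/- replicates 1 to 3 had 10, 12 and 34. The groups overlapped, since AQP5-/- replicate 3 was the highest of all and the other 2 were the lowest. The log2 fold change was 0.23 ± 0.491 (SE, edgeR quasi-likelihood test, adjusted p = 0.988), and without AQP5-/- replicate 3 it was -0.49.

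Gm21992 gave the other intronic circRNA found in all libraries, chr19:4784724-4785567 (844 nt), with 6, 3 and 3 AQP5+/+ reads against 6, 2 and 2 from AQP5-/- glands. Myo5b, a myosin motor of vesicle transport, gave an intronic circRNA of 294 nt with 3, 0 and 3 against 2, 5 and 3 reads. Etv6, a transcriptional repressor of the ETS family, gave one of 4402 nt with 2, 3 and 0 against 4, 6 and 0 reads. In these 3 the groups overlapped. The circRNA of Clpx, a subunit of a mitochondrial protease, had 1, 2 and 6 reads against 0, 0 and 1, which also overlapped. The remaining 4 among the 10 intronic circRNAs with most reads had 5 or 6 reads and were found in 1 or 2 libraries. They came from 1810013L24Rik, Wapal, Zfp644 and Xpo6.

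Among sense overlapping circRNAs the one with most reads joined 2 genes of the X chromosome. It ran from Gm5938 to Obp1b, chrX:78127041-78187487 on the plus strand (60447 nt), and had 45 reads. In AQP5+/+ glands it had 18, 7 and 8 reads, against 2, 5 and 5 without AQP5. Every AQP5+/+ library was above every AQP5-/- library. The log2 fold change was -1.33 ± 0.719 (SE, edgeR quasi-likelihood test, adjusted p = 0.617), which did not pass the threshold. It passed without AQP5+/+ replicate 2 (-1.60) and with no filter on low counts (-1.375), and was under 2-fold without AQP5+/+ replicate 1 (-0.95). The ratio of reads was 0.381 with a 95% exact counting interval of 0.179 to 0.757, which covers counting error only. AQP5+/+ replicate 2, the AQP5+/+ library with Ddx3y mRNA, had 7 reads and was the lowest of its group.

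Zfp644, a zinc finger protein, gave the second sense overlapping circRNA found in all 6 libraries, chr5:106618071-106638635 (20565 nt). Its reads were 5, 7 and 2 against 2, 3 and 6, and the groups overlapped (log2 fold change -0.28 ± 0.959). Zranb1, a deubiquitinating enzyme, followed with 4, 0 and 7 against 3, 1 and 2 reads. Igsf5 had 6, 1 and 0 against 1, 0 and 3 reads. Scgb1b2, a secretoglobin, had 0, 0 and 0 against 6, 0 and 3 reads (996 nt). Several others drew most of their reads from 1 library. Kansl1 had 7 of 9 and Lincpint 8 of 10 reads in AQP5-/- replicate 3, Mtus1 7 of 9 in AQP5-/- replicate 2, and Setbp1 4 and 5 of 10 in AQP5+/+ replicates 1 and 3. Among the 36 circRNAs with reads in at least 3 libraries, AQP5-/- replicate 3 alone had the highest count for 9. AQP5-/- replicate 2 had it for 7 and AQP5-/- replicate 1 for 1, and AQP5+/+ replicates 1 to 3 for 5, 2 and 5.

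**Figure D4:**
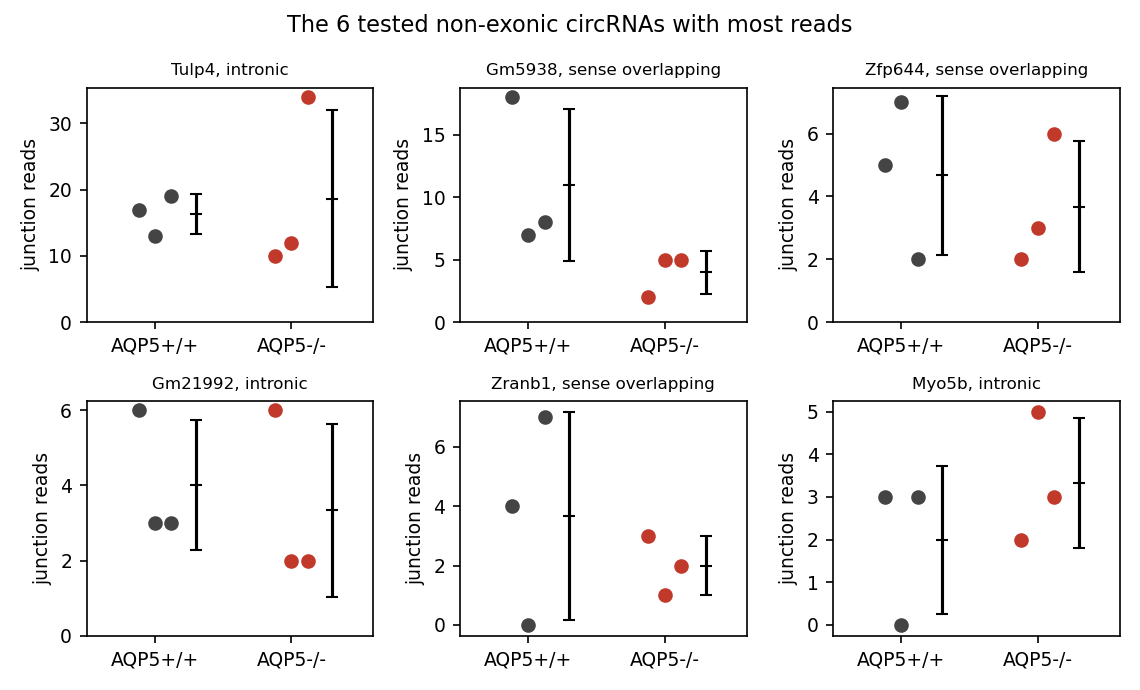
Junction reads (vertical axis) of the 6 tested non-exonic circRNAs with most reads, with 1 point for each library in order of replicate number, and bars for the mean and SD of 3 libraries beside them. The genotypes separate only for Gm5938 (18, 7 and 8 against 2, 5 and 5 reads), and the Tulp4 circRNA has 34 reads in AQP5-/- replicate 3.

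The comparison of genotypes asks which circRNAs change without AQP5. It was made for the 36 members with reads in at least 3 of 6 libraries, and the other 476 fell below this filter. By the threshold of a 2-fold change with unadjusted p below 0.05, AQP5-/- glands had 1 member raised and 3 lowered. Those are 2.78% and 8.33% of the 36, beside 2.36% higher and 6.70% lower over all 552 circRNAs tested. None of the 36, and 0% of the 552, had an adjusted p under 0.05 by edgeR. An unadjusted p under 0.05 was found for 4 of the 36 and for 50 of the 552. DESeq2 gave 0 with an adjusted p under 0.05 too. Complete separation of the genotypes by reads was seen in 6 of the 36 and in 9.96% of the 552. The 1 raised and 3 lowered members were among these 6. They had no reads in 1 genotype and met the filter only through the other, so their separation was fixed by the filter. How many of the 552 were separated in this way was not counted.

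All 4 members past the threshold were sense overlapping, had no reads in 1 genotype and shared an end with an exonic circRNA of their gene. Each reached the filter of 3 libraries only through the genotype with reads, so the calls follow in part from the filter and are given as a description. The ratios below are AQP5-/- over AQP5+/+ reads scaled to depth, with 95% exact intervals that cover counting error only. Oxr1, a protein of oxidation resistance, had 5, 1 and 4 reads against 0, 0 and 0 (ratio 0, interval up to 0.467, adjusted p = 0.514, edgeR). The exonic Oxr1 circRNA with the same start had 21, 24 and 11 against 10, 9 and 22 reads. Its groups overlapped, as did Oxr1 mRNA at 61.4, 53.5 and 60.6 against 54.7, 51.8 and 50.6 FPKM.

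Erbb2ip, a scaffold protein that binds the receptor ERBB2, had 3, 2 and 2 reads against 0, 0 and 0 (interval of the ratio up to 0.727, adjusted p = 0.514, edgeR). Its exonic partner had 15, 7 and 6 against 0, 1 and 8 reads. Phkb, a regulatory subunit of phosphorylase kinase, had 1, 3 and 1 reads against 0, 0 and 0 (interval up to 1.14, which includes no change, adjusted p = 0.514, edgeR). Rnf169, a ubiquitin-binding protein of the DNA damage response, had 0, 0 and 0 reads against 2, 1 and 1 (interval from 0.692 with no upper bound, which includes no change, adjusted p = 0.518, edgeR), while the exonic Rnf169 circRNA with the same end had 12, 7 and 6 against 10, 11 and 13 reads. These calls rest on 4 to 10 reads each. Without AQP5+/+ replicate 1 none of the 4 passed, the Rnf169 call was lost when any 1 library was left out, and those of Erbb2ip and Phkb were lost without any 1 of the AQP5-/- libraries.

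Over all members, detection was split between the genotypes. Reads were found in AQP5+/+ libraries only for 222, in AQP5-/- libraries only for 241 and in both for 49. Over all 2541 circRNAs the numbers were 859, 920 and 762, and over the exonic ones 637, 679 and 713. As 443 of the 512 were in 1 library, at least that many had to be in 1 genotype only. When reads in at least 2 libraries of a genotype were asked for, the numbers were 19, 22 and 11.

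The share of junction reads in non-exonic circRNAs was 10.2%, 10.04% and 12.9% in AQP5+/+ libraries and 12.7%, 14.3% and 11.5% in AQP5-/- libraries. The lowest had a 95% Wilson interval of 8.81% to 11.4% and the highest one of 12.9% to 15.8%. The means were 11.03% ± 1.58 and 12.8% ± 1.39 (SD, n = 3), and the groups overlapped (exact permutation test, two-sided p = 0.30, where 3 against 3 cannot go below 0.10). The difference was 1.03 percentage points for the sense overlapping and 0.568 for the intronic class (exact permutation p = 0.20 each). Antisense reads made up 0.0807% ± 0.0879 against 0.339% ± 0.229 (SD, n = 3, exact permutation p = 0.20). In AQP5+/+ replicate 2 no antisense read was found, where 3 reads would make 0.148% and the upper Wilson limit is 0.189%.

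**Figure D5:**
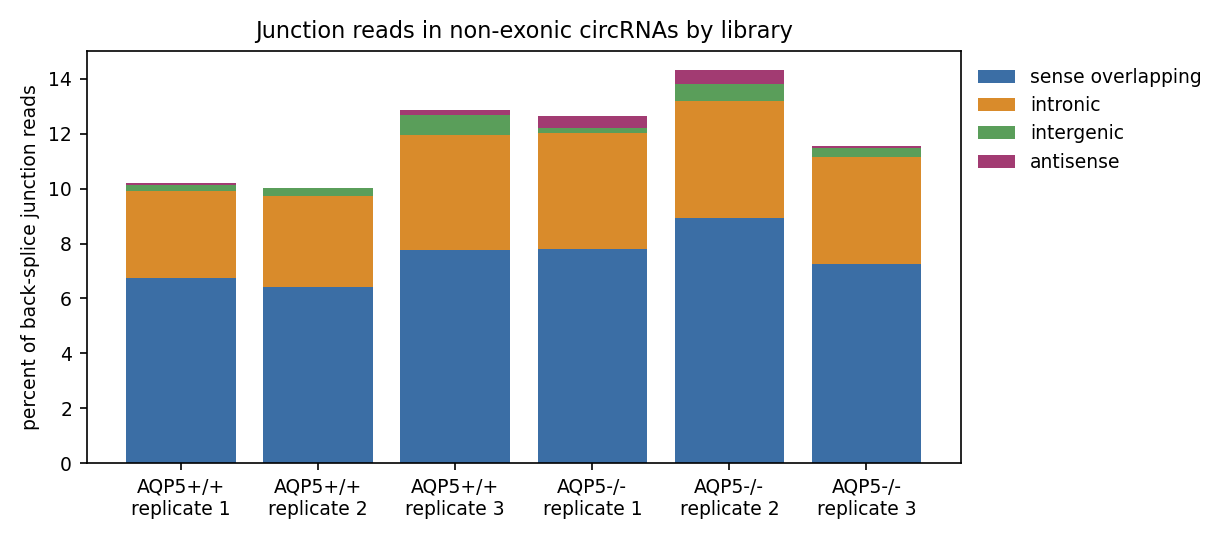
Percent of back-splice junction reads in the 4 non-exonic classes (vertical axis, stacked) in each of the 6 libraries. The totals run from 10.04% in AQP5+/+ replicate 2 to 14.3% in AQP5-/- replicate 2, and the 2 genotypes overlap.

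The antisense class was small and was found in 1 library for each of its 10 members. Its reads ranged from 2 to 6, the most being those of XLOC_000493 in AQP5-/- replicate 1 (1044 nt), followed by 5 reads of 4930597G03Rik in AQP5-/- replicate 2. For 4 of the 10 the table held a circRNA with exactly the same start and end on the other strand. These were in Zfp609, Unc13b, Arhgef28 and Ccnd3. The antisense circRNA of Zfp609, chr9:65794622-65795495 on the plus strand, had 2 reads in AQP5-/- replicate 1. The exonic circRNA at the same place on the minus strand had 37, 19 and 38 reads with AQP5 and 16, 31 and 19 without it.

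Unc13b, a priming factor of vesicle exocytosis, had 2 antisense reads in AQP5+/+ replicate 1 at chr4:43087903-43115160, and 29, 15 and 36 against 9, 3 and 6 reads for the exonic circRNA on the other strand. At Arhgef28, 2 antisense reads stood beside 8 exonic ones. Ccnd3, the cell cycle regulator cyclin D3, had 3 antisense and 4 sense overlapping reads with the same ends (chr17:47597447-47598732), all in AQP5-/- replicate 2. Another such pair was classed otherwise: 2 reads called intronic to the growth factor receptor Fgfr2 in AQP5-/- replicate 2 had the ends of the exonic circRNA of Dmbt1, a secreted scavenger receptor glycoprotein, which had 25, 17 and 39 against 10, 24 and 8 reads. In all 5 pairs the strand with fewer reads had 2 or 3 and was found in 1 library. The partner had 4 to 160 reads. The other antisense circRNAs with a named host were those of Hdac9 (9362 nt, 2 reads), XLOC_000493 and 4930597G03Rik.

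Intergenic circRNAs were read in 1 library for 12 of 16. The one found in most libraries was chr13:72575945-72596886 on the minus strand (20942 nt), with 2, 1 and 2 reads from AQP5+/+ glands and 1, 2 and 0 from AQP5-/- glands, the only intergenic one in an earlier list. In RefSeq GRCm38.p6 it overlaps the long non-coding RNA Gm38580, 27544 nt from the nearest coding gene, Irx2. The most reads, 9, were those of chr10:82569661-82569836 (176 nt), with 7 in AQP5-/- replicate 2 and 2 in replicate 3. RefSeq placed both ends of 4 intergenic circRNAs in a gene and 1 end of another, including chr7:31263756-31265904 at the secretoglobin gene Scgb2b1. The circRNAs at chr17:38685705-38685871, chr17:38685937-38687171 and chr17:38713796-38729566, lay 40052 to 68143 nt from Esp31, a gene of the exocrine gland-secreted peptides, with 3, 2 and 3 reads.

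Hosts of sense overlapping circRNAs were more highly expressed than hosts of exonic ones. Over the 241 sense overlapping hosts in the mRNA table the median level was 14.4 FPKM ± 1.72 (SD over 6 libraries), and over 1272 exonic hosts it was 9.81 ± 1.03. It was higher in 6 of 6 libraries, by 4.62 FPKM (exact sign-flip test over libraries, two-sided p = 0.03125). For the 139 intronic hosts the median was 10.8 FPKM ± 1.06, higher by 1.03 FPKM (exact p = 0.03125, 6 of 6 libraries). The test is over libraries and not over genes. Among the 100 mRNAs of highest mean FPKM were 14 sense overlapping hosts (5.81%), 1 intronic host (0.719%) and 8 exonic hosts (0.629%).

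Genes of gland products held several of these circRNAs. Obp1a had 11 members with 30 reads, the most of any gene, and Gm5938 had 7 with 63 reads. Of the 11 Obp1a circRNAs 9 were in 1 library and 2 were in 2 libraries. Their lower ends lay close together but seldom coincided, and 5 of the 11 had theirs within chrX:78087525-78087555. Both genes were poorly measured as mRNA. Obp1a was listed at 0 FPKM in all 6 libraries, although circRNAs of it had reads, and Gm5938 was listed at 0 in AQP5+/+ replicate 1 and at 56846 to 90082 FPKM in the other 5. The promoter windows of Obp1a and Gm5938 share an unbroken run of 61 bases. Whether reads of one gene were counted for the other was not tested. Car6, the secreted carbonic anhydrase of tears and saliva, had 3 members with 2 reads each, all in AQP5-/- libraries. It was named after its values were seen, as were the 2 circRNAs of the immunoglobulin segment abParts on chromosome 12 (46684 and 65297 nt), with 6 reads in AQP5-/- replicate 1 and 4 in AQP5-/- replicate 2.

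Circles across 2 genes were found for 18 sense overlapping members by RefSeq. Besides 3 from Gm5938 to Obp1b and 3 on the mitochondrial genome, they included Scgb2b6 to Scgb2b7 (85747 nt), with 0, 1 and 0 against 1, 1 and 2 reads, and Scgb2b19 to Scgb2b20 (84988 nt) with 3 reads in 2 libraries. Of the 13 with both promoter windows in the table, 4 joined genes whose windows share a run of at least 30 identical bases. These were Zfp994 to Gm7072, Gm12888 to Gm12886 and both secretoglobin pairs. Such a run was shared by 2.74% of 30664 pairs of genes next to each other on a strand. The 2 counts differ in kind, since the 13 are circRNAs and not gene pairs, with Gm5938 to Obp1b entered 3 times. The circles from Scgb2b19 to Scgb2b20 and from Copa to Dcaf8 also span a coding gene. The windows of Gm5938 and Obp1b shared a run of 12 bases at most, and the rest of these genes was not compared.

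Zfp644, Gm21992, Lincpint and Malat1 had 5 members each, with 42 reads for Zfp644 and 40 for Gm21992. The 5 of Malat1, an abundant nuclear long non-coding RNA, were 193 to 1168 nt long, had 11 reads in all and were in 1 library each. The 5 of Lincpint, also non-coding, were 31376 to 93658 nt long and had 25 reads, of which 10 were in AQP5-/- replicate 3. All 9 circRNAs of the mitochondrial genome were sense overlapping, with 2 or 3 reads each, and 2 of them were in 2 libraries. On the X chromosome 26 of 64 circRNAs were non-exonic (40.6%), 18 of them in Obp1a and Gm5938. Only 1 member held an annotated miRNA hairpin on its strand, the sense overlapping circRNA of Zfr (47771 nt, 3 reads in 1 library), which covers Mir1898.

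The mRNA of host genes was compared with limma. Of the 360 hosts measured, AQP5-/- glands had 10 raised and 3 lowered by the same threshold (2.78% and 0.833%), beside 1.16% higher and 0.883% lower over 11772 genes. None reached an adjusted p under 0.05, and 51 had an unadjusted p under 0.05. The share of all genes at that unadjusted p is not given here, so the 51 cannot be set against a general rate. The median log2 fold change was -0.17 for the hosts and -0.12 for all genes. For 9 of the 10 higher hosts AQP5+/+ replicate 2 was at least 2-fold above both other AQP5+/+ libraries. Scgb2b7 was one of them, at 979, 91127 and 952 FPKM against 69186, 73425 and 83642. The part of the Y-linked difference in these calls was not tested. The lower hosts were Ccnd3, the peptidylarginine deiminase Padi2 and the snoRNA host gene Snhg11. Ccnd3 was at 41.1, 25.5 and 67.4 against 19.8, 17.9 and 22.2 FPKM (log2 fold change -1.04 ± 0.312, SE, adjusted p = 0.430, limma). Padi2 was at 18.7, 1.31 and 13.1 against 2.32, 1.42 and 1.39 FPKM. Snhg11 was at 6.49, 3.39 and 12.4 against 4.43, 2.84 and 1.99 FPKM. In each of these hosts AQP5+/+ replicate 2 was the lowest AQP5+/+ library, and the part of the Y-linked difference was not tested.

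Genes that act on back-splicing and on intron circles were compared in the same way. Of 28 genes listed, 27 were tested by limma, and 0 were higher and 0 lower at the threshold. The median log2 fold change was -0.29, against -0.12 for all genes, and the 5 at an unadjusted p under 0.05 (Hnrnpl, Esrp1, Esrp2, U2af2 and Ythdf2) all had negative values, from -0.75 for Esrp2 to -0.34 for Ythdf2. These 5 were named after their values were seen, and the share of all genes at that p is not given here. Dbr1, which opens intron lariats, was at 3.40, 4.20 and 4.28 FPKM against 4.23, 3.98 and 3.97. Adar, an editing enzyme that limits back-splicing, was at 9.17, 12.4 and 6.93 against 11.7, 7.58 and 10.7 FPKM. Both genes overlapped between the genotypes, with log2 fold changes of 0.04 ± 0.163 and 0.08 ± 0.242 (SE). Of 30 secreted products listed 19 were tested, and 2 were higher and 1 lower, beside 1.16% and 0.883% of all genes. Mup4 was at 1981, 19022 and 1489 FPKM against 19703, 20079 and 19906, so that AQP5+/+ replicate 2 was close to the AQP5-/- libraries. Spt1 was listed at 0 in the AQP5+/+ libraries and at 88894, 72882 and 85287 FPKM in the AQP5-/- libraries. A listing at 0 beside such high levels was also seen for Gm5938, and whether Spt1 mRNA was measured correctly was not tested. Dmbt1 was lower, at 232, 115 and 272 against 85.1, 133 and 76.2 FPKM, with AQP5+/+ replicate 2 inside the range of the AQP5-/- libraries. Among products not past the threshold, salivary Bpifa2 reached 11919 and Dcpp1 881 FPKM in AQP5-/- replicate 1, with 5.28 to 7.40 and 0.575 to 0.669 FPKM in the other AQP5-/- libraries, and 1164 and 54.4 FPKM in AQP5+/+ replicate 2. Their part in the results was not tested.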

How the data were processed

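The 512 members were all circRNAs that the authors did not class as exonic. The members and gene lists were chosen with earlier results of these data known. Per the labels and methods, the deposited counts are raw junction reads per circRNA and library, from reads trimmed with cutadapt 1.9.3, aligned with STAR 2.5.1b to mm10 and passed to DCC. The deposited FPKM values per gene come from the authors' use of HISAT2 2.0.4, Cufflinks and Cuffdiff 2.2.1. Another 12 columns of normalized or scaled values per library were not used.

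Counts of circRNAs with reads in at least 3 libraries were compared with edgeR 4.0.16 (quasi-likelihood test, TMM factors), and log2(FPKM + 0.5) of genes with a mean of at least 0.5 FPKM with limma 3.58.1 (R 4.3.3, eBayes with trend), both with Benjamini-Hochberg adjustment over all features. The study's threshold, a fold of at least 2 and p under 0.05, was kept. Effective depths were 1329 to 1726 reads. Ratios of reads have exact binomial intervals. Classes were compared with exact permutation tests in Python 3.11.15. Intervals cover counting error only. The fits were tested on simulated data. By rule, any antisense or intergenic circRNA could be named, and of the other classes those with most reads, found in all libraries, past the threshold, in all libraries of 1 genotype only, longest or shortest, with their hosts. Promoter and miRNA sequences are from RefSeq, GRCm38.p6. Replicate numbers were used for names only. Junction sequences beyond these windows or on chromosome 18 were not analysed here.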

Additional observations from a re-analysis of the deposited data

How the results depend on the processing

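No direction changed in the recurrence, reads per circRNA or host level comparisons under the alternatives run, but with 5 libraries the exact sign-flip p cannot go below 0.0625. Leaving out 1 library, the recurrence difference ranged from -41.24 to -36.51 points for all non-exonic, from -39.57 to -33.88 for sense overlapping and from -45.31 to -38.68 for intronic circRNAs. The difference in reads per circRNA ranged from -1.025 to -0.8725 for all and from -1.1 to -0.9979 for sense overlapping ones, and with medians it was -0.5 and -0.6667. The host level difference ranged from 2.531 to 2.772 FPKM for all, 4.337 to 4.789 for sense overlapping and 0.9621 to 1.119 for intronic hosts.

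The count of members higher in AQP5-/- libraries, 1, was 3 with no filter, 2 with reads in at least 2 libraries, 0 by edgeR's exact test, 0 by DESeq2 and 0 without any 1 library (0 to 0). The count lower, 3, was 1 by the exact test, 1 by DESeq2 and 0 to 3 without 1 library. Equal counts need not be the same members. Rnf169, the member called higher, did not pass with no filter or with reads in at least 2 libraries. Erbb2ip and Phkb did not pass without AQP5-/- replicate 3, where the count lower was 3. With the replicate number as a block, 0 were higher and 0 lower. Same-numbered libraries did not deviate together (correlations -0.01117, -0.01844 and -0.06577), so the numbers were not taken as pairs. The cause of these changes was not tested.

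The intergenic share difference turned from -0.05316 to 0.06169 points with at least 3 reads and to 0.2545 with at least 2 libraries, and ranged from -0.1703 to 0.1107 without 1 library, including 0.03953 without AQP5-/- replicate 1. The Tulp4 log2 fold change ranged from -0.4882 (without AQP5-/- replicate 3) to 0.5283 without 1 library. Detection in both genotypes fell to 26 with at least 2 reads in each. With reads in at least 2 libraries of a genotype the numbers were 19 in AQP5+/+ only, 22 in AQP5-/- only and 11 in both. Without 1 library they ranged from 145 to 235 and from 156 to 252. Host mRNAs higher were 3 with no filter and 1 to 15 without 1 library, and lower were 1 with no filter, 0 after median centring and 0 to 9 without 1 library. Of the back-splicing genes 0 to 1 were higher and 0 to 1 lower without 1 library. The looks at circRNAs in no earlier list, without Obp1a, Gm5938 and Obp1b hosts, and without the circRNA with most reads were chosen after seeing the data.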
